A study of Mus musculus with 208 samples.

Results

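The opioid receptor and opioid peptide precursor genes of the mouse were followed as 1 set of 8 genes, taken by symbol from the 46403 genes listed for each of 4 brain regions. The set holds the 4 receptors Oprm1, Oprd1, Oprk1 and Oprl1 (mu, delta, kappa and nociceptin receptor) and the 4 precursors Penk, Pdyn, Pomc and Pnoc (proenkephalin, prodynorphin, proopiomelanocortin and prepronociceptin). All 8 genes passed the filter on low counts (a total above 10) in each of the 4 regions.

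Opioid receptors are G protein-coupled receptors that couple to inhibitory G proteins, open potassium channels, close presynaptic calcium channels and so quiet the neurons that carry them. Their ligands are cut from large precursor proteins: enkephalins from Penk, dynorphins from Pdyn, beta-endorphin from Pomc and nociceptin from Pnoc. Morphine acts mainly at the mu receptor. In the striatum Penk is best known from indirect-pathway projection neurons and Pdyn from direct-pathway projection neurons, while in the hypothalamus Pomc marks a small class of arcuate nucleus neurons.

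The animals were wild-type C57BL/6NTac mice of both sexes. Morphine reached the MOR groups first through the dam, whose minipump gave 10 mg/kg per day, and then by subcutaneous injections of 10 mg/kg, given to the pups 2 times a day from postnatal day 1 to 14. SAL groups had saline by the same routes, and pups of both exposures were raised by drug-naive surrogate dams. As adults the mice received lipopolysaccharide (LPS, a bacterial cell wall component that sets off an inflammatory response) or saline, and tissue was taken 2 h later, which gave 2 groups with saline as adults (SAL-SAL and MOR-SAL) and 2 with LPS (SAL-LPS and MOR-LPS), named by perinatal exposure and then by adult challenge. Punches of 2.0 mm were sorted for about 5000 nuclei bearing the neuronal protein NeuN, and nuclear RNA was sequenced as 1 library per animal and region. The 208 libraries came from 71 animals, and in the order SAL-SAL, SAL-LPS, MOR-SAL and MOR-LPS they numbered 10, 10, 12 and 16 in the prefrontal cortex (PFC), 13, 15, 8 and 18 in the striatum, 13, 14, 12 and 16 in the hippocampus and 11, 12, 14 and 14 in the hypothalamus. A punch and a nuclear sort sample a mixture of neurons, so fewer neurons of a type and less RNA per neuron cannot be told apart in any value given here. Exposure was given to whole litters through the dam, so exposure and litter cannot be told apart either. The labels name no litter. They number each animal in 2 parts (12-0), and what the first part stands for is not given in the sources used here. Animals that share it are called a number set: there were 18 sets of 2 to 5 animals, each of 1 exposure and 17 of them of 1 sex, and the study counts more litters than there are sets.

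What makes the precursors opioid genes is a short run of codons beside pairs of basic residues, which is shown here because it separates the 4 precursors whose RNA was measured. The codons of the peptide core are in capitals, and the flanking codons in lower case.
Penk, first Met-enkephalin copy, chr4:4134328-4134354 (minus strand): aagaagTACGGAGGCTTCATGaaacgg
Penk, Leu-enkephalin copy, chr4:4133935-4133961 (minus strand): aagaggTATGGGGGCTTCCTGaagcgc
Pdyn, first Leu-enkephalin core, chr2:129688232-129688258 (minus strand): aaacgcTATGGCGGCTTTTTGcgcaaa
Pomc, start of beta-endorphin, chr12:3960367-3960393 (plus strand): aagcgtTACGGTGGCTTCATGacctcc
Pnoc, start of nociceptin, chr14:65404875-65404898 (minus strand): aaaaggTTTGGGGGCTTCaccggg
The sequences were read 5′ to 3′ from the GENCODE vM21 transcripts of the mm10 build, and each lies within 1 coding exon. The Penk coding sequence of 268 codons held 7 copies of the core, 6 ending in methionine and 1 in leucine. Pdyn, of 248 codons, held 3 copies that all end in leucine, and Pomc, of 235 codons, held 1 that ends in methionine. Pnoc, of 212 codons, begins its peptide with a phenylalanine codon where the enkephalin cores have a tyrosine codon.

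The receptor genes lie at chr10:6758506-7038198 (Oprm1, plus strand), chr4:132110726-132144486 (Oprd1, minus strand), chr1:5588466-5606131 (Oprk1, plus strand) and chr2:181715016-181720985 (Oprl1, plus strand). The precursors lie at chr4:4133531-4138819 (Penk, minus strand), chr2:129686565-129699844 (Pdyn, minus strand), chr12:3954951-3960642 (Pomc, plus strand) and chr14:65400673-65425472 (Pnoc, minus strand). Exons of Penk share 233 bases with A830012C17Rik on the opposite strand, and exons of Oprm1 share 96 bases with Ipcef1 on the opposite strand. Whether reads were counted by strand is not given in the sources used here, so reads from these shared bases are uncertain.

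Depth and tissue identity varied between libraries. Median totals ran from 5543589 counts in the hypothalamus to 10849924 in the striatum, and 8 libraries lay under 0.5 of their region's median, the lowest being hypothalamus SAL-LPS 1-4 with 7673 counts and SAL-SAL 4-3 with 160755. Levels are given as normalized CPM, counts scaled to library depth with TMM scaling between libraries. The hypothalamus list (Hcrt, Pmch, Avp, Oxt, Trh, Sim1, Nr5a1, Gal) summed to a median of 64.7 normalized CPM in the hypothalamus, against 5.87 in the striatum and below 2 in the hippocampus (1.95) and PFC (1.84). In 13 hypothalamic libraries it lay under 10 normalized CPM, in 3 of 11 SAL-SAL, 3 of 14 MOR-SAL, 4 of 12 SAL-LPS and 3 of 14 MOR-LPS. Oxt and Nr5a1 were at a median of 0 there. Libraries labelled PFC carried the striatum list (with Ppp1r1b, Rgs9, Pde10a and Bcl11b among its genes) at a median of 3612 normalized CPM, close to the 3459 of the striatum, and their cortical excitatory list had a median of 329 against 310 in the hippocampus. The thalamus list was highest in the libraries labelled striatum, with a median of 4422. The neuronal list (Rbfox3, Snap25, Syt1, Map2) had a median of 1963 in the hypothalamus, against 4535 in the striatum, 5116 in the hippocampus and 5639 in the PFC. Rbfox3 was at 141 there against 1195 to 2132 elsewhere, and Syt1 at 623 against 2010 to 2256. Snap25 (695 against 698 to 904) and Map2 (494 against 449 to 518) differed less. No 2 libraries of those compared agreed within sampling noise. But 5 sets of libraries of 1 group and sex, 14 libraries in all, were linked by pairs that differed by less than 5 times the sampling variance. They include 5 of the 14 hypothalamic MOR-SAL libraries. Of the 10 hypothalamic pairs under that limit, not all were of 1 group and sex.

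Across regions, the receptors separated into those low in the hippocampus (Oprm1, Oprk1) and those by which the hypothalamus differed from each other region (Oprl1 higher, Oprd1 lower). A large share of all genes differed there too, as given below, and so did the neuronal list given above. Oprl1, the receptor for nociceptin, had a median of 109 normalized CPM in the hypothalamus over 51 libraries (range 15.4 to 199). Its medians were 18.8 in the PFC (n = 48), 23.0 in the striatum (n = 54) and 20.7 in the hippocampus (n = 55), so that the hypothalamus stood above 3 regions of like level. Oprd1, the delta receptor, ran the other way, with medians of 20.3 in the PFC, 15.4 in the striatum, 10.8 in the hippocampus and 4.59 in the hypothalamus.

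Oprm1, the main target of morphine, had a median of 59.3 normalized CPM in the hypothalamus (range 10.6 to 96.2), 58.1 in the striatum (29.3 to 132) and 39.5 in the PFC (14.3 to 155), against 18.4 in the hippocampus (0 to 74.4). Oprk1, the receptor for dynorphins, followed the same outline with 49.4 in the hypothalamus, 31.8 in the striatum, 26.2 in the PFC and 3.75 in the hippocampus. The 1 hippocampal library without an Oprm1 read was the shallowest there, where 3 counts, the most that a count of 0 allows, would be 13.2 CPM before TMM scaling. Such floors cover counting error only. All ranges overlapped between regions, and the extreme libraries of each region reached into the levels of its neighbours.

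Among the precursors, Penk had its highest medians in the PFC (median 394 normalized CPM, range 74.5 to 2344) and the striatum (306, range 2.78 to 2929). It was lower in the hypothalamus (62.7, range 0 to 537) and the hippocampus (26.98, range 6.44 to 831). Pdyn, the dynorphin precursor, was ordered PFC, striatum, hippocampus and hypothalamus, with medians of 37.0, 30.5, 19.1 and 17.5. Penk thus spread far more widely between single striatal libraries than Oprm1, whose range there was 29.3 to 132.
Pnoc was highest in the hypothalamus (median 15.6) and lay between 5.35 and 6.19 elsewhere. Pomc, cut to beta-endorphin and melanocortins, was low in all 4 regions. Its medians were 1.16 in the hypothalamus, 0.728 in the PFC, 0.519 in the striatum and 0.383 in the hippocampus, and 51 of the 208 libraries held no Pomc read (17 in the PFC, 7 in the striatum, 16 in the hippocampus and 11 in the hypothalamus). In the hypothalamus other arcuate nucleus genes were also low, with Agrp at a median of 2.99, Npy at 4.46, Cartpt at 11.4 and Kiss1 and Tbx3 at 0.

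**Figure D1:**
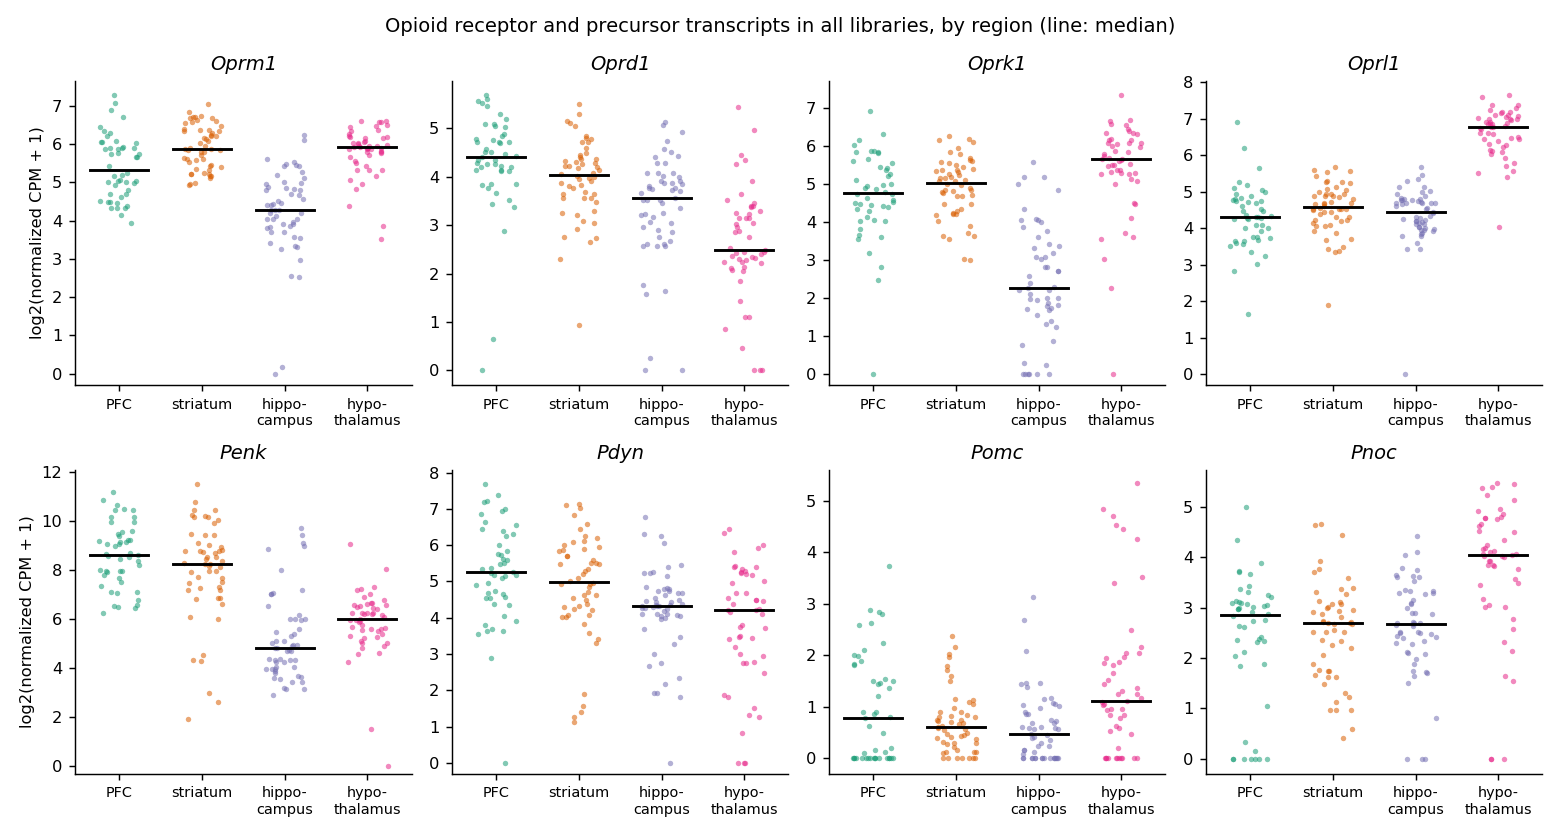
Levels of the 8 genes in all 208 libraries. Each panel is 1 gene, each point 1 library at log2(normalized CPM + 1), grouped by region along the horizontal axis, and each line is the region's median. Oprl1 and Pnoc sit highest in the hypothalamus (medians 109 and 15.6 normalized CPM), Penk in the PFC and striatum (394 and 306), and Oprk1 lowest in the hippocampus (3.75).

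Genes were compared per kilobase of exons. The length joins all annotated exons of a gene (8037 bases for Oprm1), whether or not they are used in these neurons, so the order is approximate. The hypothalamic medians were ordered Penk (38.4 normalized CPM per kb), Oprl1 (29.1), Oprm1 (7.38), Pnoc (7.23), Pdyn (6.06), Oprk1 (5.39), Oprd1 (1.14) and Pomc (0.880). In the striatum the order began with Penk (187), Pdyn (10.6), Oprm1 (7.22) and Oprl1 (6.14). In the PFC Oprd1 (5.06), Oprl1 (5.00) and Oprm1 (4.91) had nearly the same level by this length.

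Whether the regions differ without exposure or challenge was tested in the 47 SAL-SAL libraries with edgeR's quasi-likelihood test over 19356 genes, with sex as a term and Benjamini-Hochberg adjustment over all genes. Over the 6 pairs of regions, 20 of 48 comparisons of members passed an adjusted p of 0.05. None of the 8 passed between striatum and PFC, where 13.2% of all genes did, and 1 of them, Pomc, had an unadjusted p under 0.05. The total was 23 with DESeq2 and 20 to 32 over all alternatives. In each of the other pairs 4 of 8 passed, against 13.7% of all genes for hippocampus and PFC, 9.31% for hippocampus and striatum, 40.4% for hypothalamus and PFC, 36.4% for hypothalamus and striatum, and 38.2% for hypothalamus and hippocampus.

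The hippocampus was lower than both PFC and striatum in the same 4 genes. Penk was lower by a log2 fold change of -3.34 ± 0.66 (SE) against the PFC and -3.16 ± 0.61 against the striatum (adjusted p 0.00045 and 0.00035), with SAL-SAL means of 77.2 normalized CPM in the hippocampus (n = 13), 626 in the PFC (n = 10) and 664 in the striatum (n = 13). The SAL-SAL medians of Penk were 30.4, 411 and 441 in that order, and the highest hippocampal library, at 545, raised the mean there. Oprk1 was lower by -2.32 and -2.57, Oprm1 by -1.40 and -1.60 and Pdyn by -2.17 and -1.66, with adjusted p between 0.00057 and 0.015. In limma-voom with animal as a block, Pdyn did not pass between hippocampus and striatum (adjusted p = 0.068).
The hypothalamus (n = 11) was higher than each other region in Oprl1, by a log2 fold change of 1.88 against the PFC, 1.45 against the striatum and by 3.89-fold against the hippocampus, on means of 83.2 normalized CPM in the hypothalamus, 21.4 in the PFC, 29.6 in the striatum and 20.7 in the hippocampus. It was lower than each other region in Oprd1, by -2.49, -1.81 and -1.27. Penk and Pdyn were lower there than in the PFC (-3.87 and -2.83) and the striatum (-3.70 and -2.32), while Oprk1 (2.49) and Oprm1 (1.15) were higher than in the hippocampus, all with adjusted p of at most 0.029. Pnoc passed in no pair, its largest difference being 1.23 ± 0.56 between hypothalamus and PFC (adjusted p = 0.072, edgeR's quasi-likelihood test). The hypothalamic table held 1638 genes with a mean of at least 5 CPM and not 1 count in the other regions, none of them a member, so the tables may have been counted differently. The region labels carry the marker levels given above, among them the lower neuronal list of the hypothalamus, whose part in these differences was not tested.

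Within regions, Penk and Pdyn moved with the marker list of direct-pathway striatal neurons (Drd1, Tac1, Isl1, Eya1; its sum is called the D1 list here). Outside the striatum and PFC other genes than Drd1 carried this sum: in the hypothalamus Tac1 had a median of 42.7 normalized CPM against 3.69 for Drd1, and in the hippocampus Eya1 had 19.7 against 3.19, so there the sum is given as a sum of these 4 genes and not as a level of direct-pathway neurons. Across libraries on the log2(normalized CPM + 1) scale, Penk and the D1 list had Spearman's rho 0.94 in the striatum (Pearson's r 0.95, and 0.94 without the 2 libraries farthest from the median), 0.92 in the PFC (r 0.92, then 0.91) and 0.69 in the hypothalamus (r 0.77, then 0.77). In the hippocampus rho was 0.64 (r 0.81, then 0.74). Pdyn and the D1 list had rho 0.88 in the striatum (r 0.90, then 0.87), 0.79 in the PFC (r 0.66, then 0.62), 0.63 in the hypothalamus (r 0.63, then 0.55) and 0.61 in the hippocampus (r 0.57, then 0.52). Each of these had a permutation p of 1e-04, the smallest that 10000 resamples give, except r of Pdyn in the hippocampus with 2e-04, and adjusted values over the 256 relations computed (8 genes, 4 regions, 8 lists) were at most 0.00095. With the list of indirect-pathway neurons (Drd2, Adora2a, Gpr6, Sp9), Penk had rho 0.60 in the striatum (r 0.79, then 0.75), 0.77 in the PFC (r 0.74, then 0.70), 0.71 in the hippocampus (r 0.84, then 0.81) and 0.49 in the hypothalamus (r 0.63, then 0.49), with adjusted permutation p of at most 0.0033. Animals may share litters, and both measures come from the same library, so these values describe how the libraries vary.
The 6 striatal libraries of lowest Penk, between 2.78 and 22.1 normalized CPM, were SAL-LPS 1-2 and 3-3, MOR-LPS 14-4 and 15-1, and SAL-SAL 3-4 and 3-2. The lowest of them, SAL-LPS 1-2, had a D1 list sum of 7.55 and a thalamus list sum of 9087, whereas the highest, SAL-SAL 5-3 with Penk at 2929, had 726 and 875. In the hippocampus 5 libraries exceeded 400 normalized CPM of Penk, SAL-LPS 9-3, 10-4, 3-1 and 1-2 and SAL-SAL 5-3, and their striatum list sums were between 1996 and 6205 against a regional median of 1140.

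**Figure D2:**
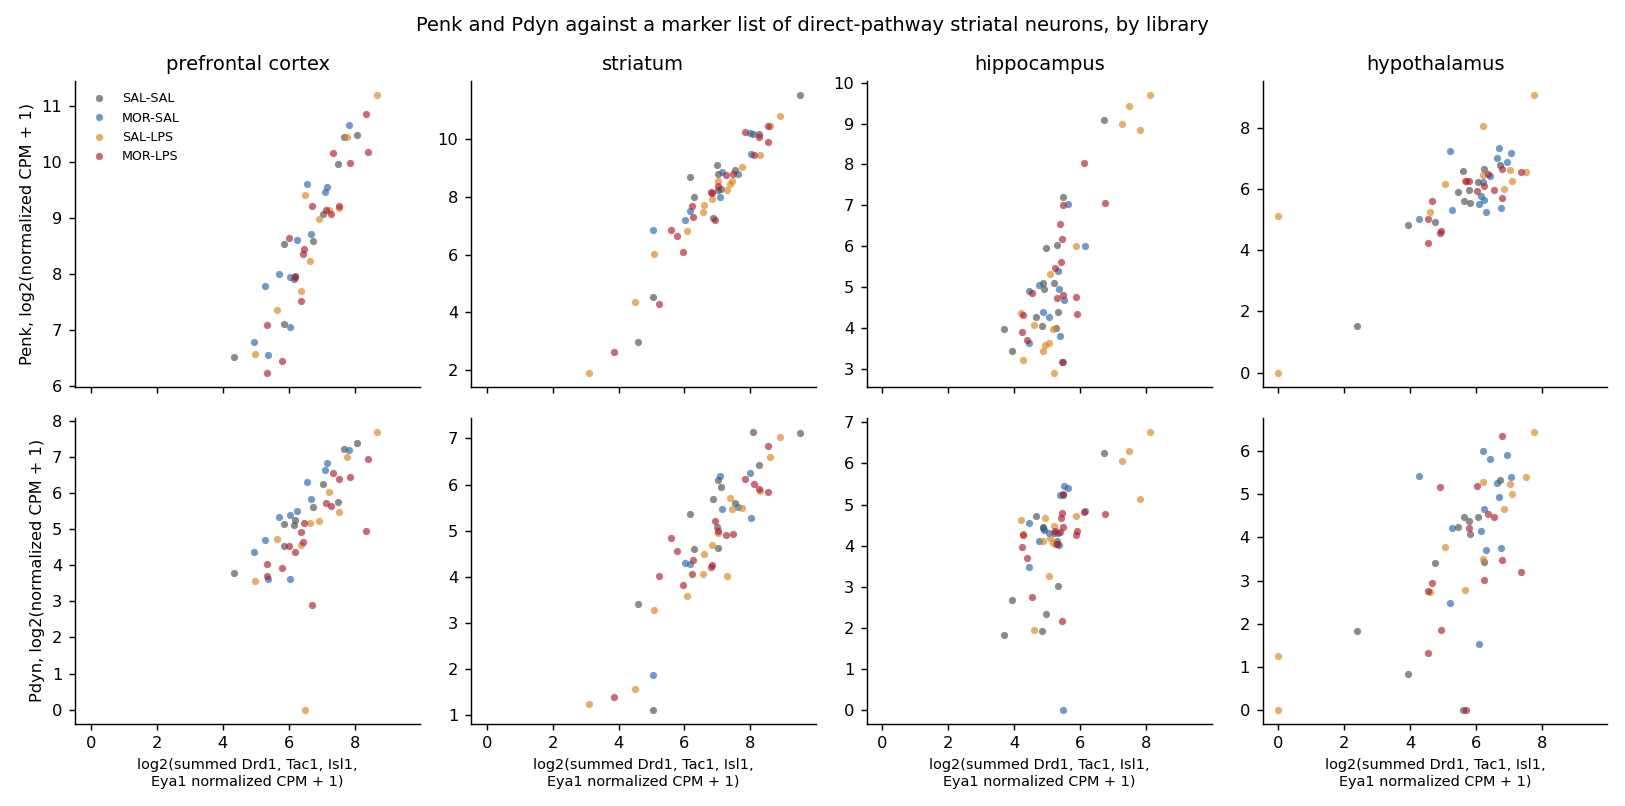
Penk (top) and Pdyn (bottom) of each library against the summed D1 list, both as log2(normalized CPM + 1), with 1 panel per region and points coloured by condition. Both precursors rise along the D1 list in every region, most tightly for Penk in the striatum (rho 0.94) and PFC (rho 0.92), and points of the 4 conditions lie along the same band.

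Of the receptors, Oprk1 moved with the indirect-pathway list in the striatum (rho 0.71, r 0.74, then 0.69) and Oprd1 with the striatum list there (rho 0.84, r 0.83, then 0.81). Oprl1 ran against the striatum list in the striatum (rho -0.64, r -0.58, then -0.52). In the hypothalamus Oprk1 rose with the hypothalamus list (rho 0.61, r 0.53, then 0.64) and fell with the cortical excitatory list (rho -0.59, r -0.60, then -0.55), and Pdyn rose with the hypothalamus list (rho 0.66, r 0.69, then 0.66). Permutation p for these was at most 2e-04 and adjusted p at most 0.0010. Between members, Penk and Pdyn had rho 0.87 in the striatum (r 0.87, then 0.83), 0.78 in the PFC (r 0.63, then 0.59), 0.62 in the hippocampus (r 0.63, then 0.55) and 0.44 in the hypothalamus (r 0.51, then 0.39; adjusted permutation p of rho 0.0065), and Pdyn and Pomc had rho 0.62 in the hypothalamus (r 0.62, then 0.60).

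Condition was tested within each region by edgeR's quasi-likelihood test on the counts, with sex as a term, for 5 comparisons: exposure without challenge (MOR-SAL against SAL-SAL), exposure under challenge (MOR-LPS against SAL-LPS), the LPS response of saline-exposed animals (SAL-LPS against SAL-SAL), the LPS response of morphine-exposed animals (MOR-LPS against MOR-SAL), and the second of these responses minus the first, called the difference in response here. Members passed the threshold only in the hypothalamus among the 4 regions, and there 4 comparisons did. Oprm1 was lower in MOR-LPS than in MOR-SAL, 1 of 8 members against 6.27% of all 28859 genes tested. The difference in response passed for Oprk1, Penk and Pomc, 3 of 8 members against 3.8% of all genes. In the hypothalamus 0 of 8 passed for exposure without challenge (1.44% of genes), exposure under challenge (1.03%) and the response of saline-exposed animals (0.246%) by edgeR, DESeq2 or limma-voom with a correlation within number sets. In edgeR 4 members had an unadjusted p under 0.05 in each, as did 17.3%, 13.9% and 14% of all genes in that order.

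Oprm1 ranged from 44.3 to 96.2 normalized CPM in the 14 hypothalamic MOR-SAL libraries, with a median of 69.0. In the 14 MOR-LPS libraries it ranged from 10.6 to 90.3, with a median of 42.8. The groups overlapped, but 7 MOR-LPS libraries lay below the lowest MOR-SAL library and 13 lay below the MOR-SAL median. The means were 72.3 ± 17.1 (SD, n = 14) and 43.5 ± 20.7 (SD, n = 14), a log2 fold change of -0.72 ± 0.20 (SE; 95% interval -1.11 to -0.34) with an adjusted p of 0.018 by edgeR's quasi-likelihood test. The saline-exposed groups lay between, SAL-SAL at 19.9 to 86.6 with a median of 59.6 and SAL-LPS at 42.4 to 95.2 with a median of 60.9. SAL-LPS differed from SAL-SAL by 0.20 ± 0.22 (adjusted p = 0.82) and MOR-LPS from SAL-LPS by -0.58 ± 0.21 (adjusted p = 0.14). The difference in response was -0.92 ± 0.30 and did not pass (adjusted p = 0.061), so a response particular to the morphine-exposed animals was not shown. It passed without number set 4, 7, 13 or 16 and without any 1 of 7 libraries (1-3, 1-4, 3-3, 4-3, 13-2, 13-3 and 16-4).
The call for Oprm1 held in 12 of 13 alternative fits, with log2 fold changes of -0.84 to -0.53. It was lost with the number set as a block (-0.73, adjusted p = 0.061) and without set 6 (-0.63, adjusted p = 0.071), and held without any 1 of the 51 libraries.

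**Figure D3:**
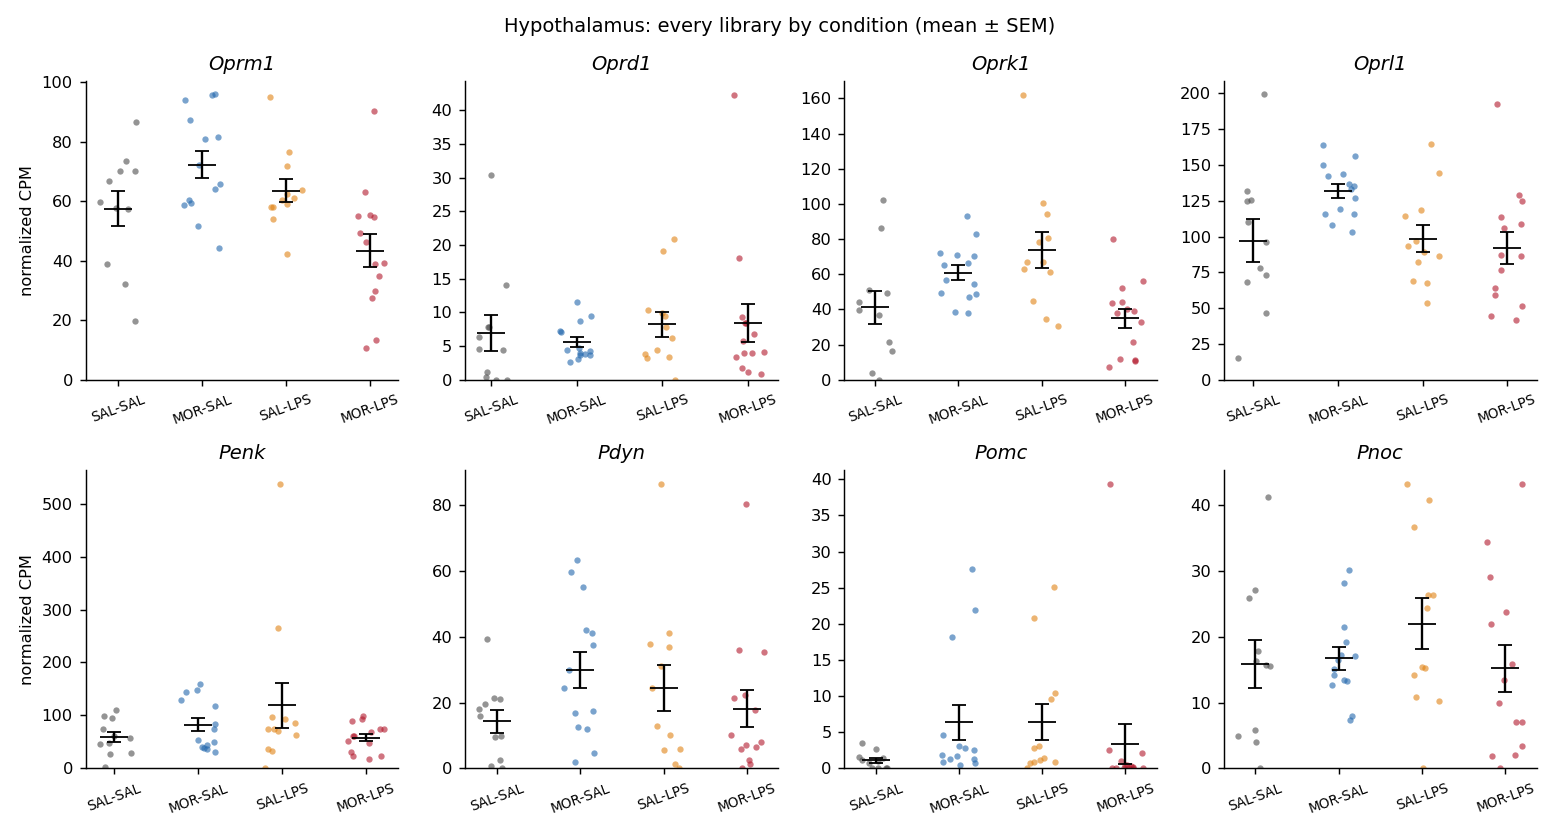
Normalized CPM of the 8 genes in every hypothalamic library by condition, with points for libraries and lines for the mean ± SEM. Oprm1 is lowest in MOR-LPS (mean 43.5) and highest in MOR-SAL (72.3), Oprk1 highest in SAL-LPS (73.6), and single libraries reach far above the rest for Penk in SAL-LPS (537) and Pomc in MOR-LPS (39.4).

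Oprk1 had a higher median in SAL-LPS than in SAL-SAL and a lower one in MOR-LPS than in MOR-SAL, neither step passing the test by itself. It ranged from 0 to 102 normalized CPM in SAL-SAL (median 40.0, n = 11) and from 30.7 to 162 in SAL-LPS (median 66.9, n = 12), a difference of 0.87 ± 0.33 (adjusted p = 0.18). It ranged from 37.7 to 93.2 in MOR-SAL (median 61.0, n = 14) and from 7.11 to 80.03 in MOR-LPS (median 38.5, n = 14), a difference of -0.81 ± 0.28 (adjusted p = 0.061), which passed without set 4, 10 or 13 or library 10-1, 13-2, 13-3 or 15-3 (-0.97 to -0.81, adjusted p 0.035 to 0.049). MOR-LPS lay below SAL-LPS by -1.05 ± 0.30 (adjusted p = 0.058), with 13 of 14 MOR-LPS libraries under the SAL-LPS median, and this passed without any 1 of libraries 1-0, 3-3, 10-1, 13-2 and 15-3. All 4 groups overlapped, and 6 MOR-LPS libraries lay below the lowest MOR-SAL library. The difference in response was -1.68 ± 0.44 on the log2 scale (95% interval -2.54 to -0.82, adjusted p = 0.017). The highest SAL-LPS value rests on 3 counts of library 1-4, and the 0 in SAL-SAL belongs to the shallow library 4-3. The fit without low-depth libraries gave -1.70 (adjusted p = 0.016). The call held in 9 of 12 alternative fits and without any 1 of 51 libraries, and was lost without set 10 (-1.28, adjusted p = 0.094) or set 4 (-1.43, adjusted p = 0.055), with edgeR's filterByExpr (-1.65, adjusted p = 0.062), with limma-voom and a correlation within number sets (-1.44, adjusted p = 0.14) and without the 3 libraries of highest thalamus markers (-1.36, adjusted p = 0.066).

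Oprl1 and Oprd1 passed in no hypothalamic comparison. Oprl1 was tightest in MOR-SAL, at 104 to 164 normalized CPM (median 134), and 8 of 14 MOR-LPS libraries lay below that whole range, on a MOR-LPS range of 41.6 to 193 and a median of 86.8. The difference was -0.54 ± 0.20 (adjusted p = 0.084), and it passed without set 10 or 17, without library 10-3 or 17-1, and without the 3 libraries of highest thalamus markers (-0.53, adjusted p = 0.040). Oprd1 had group means between 5.61 and 8.45, with differences whose standard errors were between 0.48 and 0.73.

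Among the precursors, Penk and Pomc passed for the difference in response, and single libraries moved both values. Penk ranged from 1.90 to 110 normalized CPM in SAL-SAL (median 58.4), 31.8 to 159 in MOR-SAL (63.9), 0 to 537 in SAL-LPS (75.1) and 17.8 to 99.6 in MOR-LPS (61.2). The 0 belongs to the shallow library SAL-LPS 1-4. The difference in response was -1.67 ± 0.51 (adjusted p = 0.049), and MOR-LPS lay below SAL-LPS by -1.15 ± 0.36 without passing (adjusted p = 0.080). SAL-LPS 10-0, the library at 537, also had the highest hypothalamic striatum list sum (1648, against a median of 283). Without it the difference was -1.12 (adjusted p = 0.18), and without set 10 it was -0.96 (adjusted p = 0.27). The Penk call held in 4 of 12 alternative fits and without 24 of the 51 single libraries.
Pomc ranged from 0 to 3.49 normalized CPM in SAL-SAL (median 1.06, 4 of 11 libraries at 0), 0.4932 to 27.6 in MOR-SAL (2.18, 0 of 14), 0 to 25.2 in SAL-LPS (2.14, 1 of 12) and 0 to 39.4 in MOR-LPS (0.268, 6 of 14). Libraries with more than 15 normalized CPM were MOR-SAL 14-1, 17-0 and 13-1, SAL-LPS 10-2 and 9-1, and MOR-LPS 17-1. The difference in response was -4.19 ± 1.26 (adjusted p = 0.043), from an LPS response of 3.22 ± 1.01 in saline-exposed animals (adjusted p = 0.095) and -0.97 ± 0.76 in morphine-exposed animals (adjusted p = 0.54). The counts behind these values were 55 in SAL-SAL, 498 in MOR-SAL, 317 in SAL-LPS and 341 in MOR-LPS, and 302 of the last came from MOR-LPS 17-1. Without that library the difference was -5.99 (adjusted p = 0.0035) and MOR-LPS lay below both SAL-LPS (-3.60, adjusted p = 0.037) and MOR-SAL (-3.44, adjusted p = 0.0080), and both also passed without set 17. Without SAL-LPS 10-2 the difference in response was -3.74 (adjusted p = 0.083), and the call held without 32 of the 51 single libraries and in 3 of 12 alternative fits. It held without 8 of 17 number sets, and set 10 was among those whose removal ended it. Across hypothalamic libraries Pomc followed the hypothalamus list (rho 0.54, r 0.53, then 0.50, permutation p at most 2e-04). The zeros of SAL-LPS 1-4 and SAL-SAL 4-3 come from libraries of 7673 and 160755 counts.

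Pdyn and Pnoc passed in none of these comparisons. Pdyn had medians of 16.0 in SAL-SAL, 27.1 in MOR-SAL, 18.6 in SAL-LPS and 9.13 in MOR-LPS, with a difference in response of -2.09 ± 0.77 (adjusted p = 0.12), which passed without set 1 (-2.60, adjusted p = 0.045). Pnoc had medians of 15.7, 15.8, 19.8 and 11.7 in that order and a difference of -0.72 ± 0.59 (adjusted p = 0.64). Over the 8 members the median log2 difference in response was -1.29, where the median over all genes was -0.056, and for MOR-LPS against MOR-SAL it was -0.63 where the median over all genes was 0.0028.

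**Figure D4:**
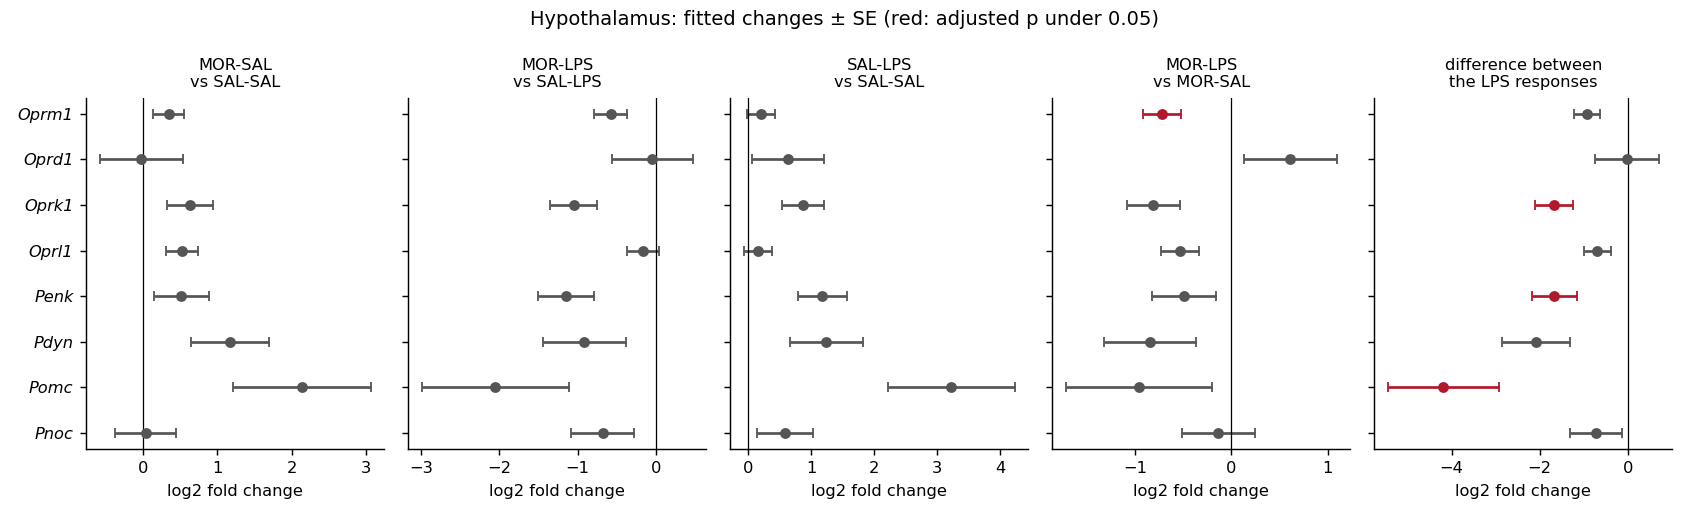
Fitted log2 fold changes ± SE of the 8 genes in the hypothalamus, with 1 panel per comparison and the horizontal axis scaled to each panel. Red points passed an adjusted p of 0.05: Oprm1 in MOR-LPS against MOR-SAL (-0.72), and Oprk1 (-1.68), Penk (-1.67) and Pomc (-4.19) for the difference in response.

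Markers of other cells moved with these hypothalamic comparisons. In MOR-LPS against MOR-SAL all 5 oligodendrocyte markers were higher (median log2 1.74), as were 4 of 5 astrocyte markers (2.502), 4 of 5 cortical excitatory markers (3.34), 2 of 6 microglial and 1 of 4 endothelial markers. The summed astrocyte list was 97.4 to 1049 normalized CPM in MOR-LPS (median 440) and 77.2 to 201 in MOR-SAL (median 99.8). The oligodendrocyte list was 199 to 5521 (median 502) against 52.1 to 550 (median 285), and the cortical excitatory list 46.3 to 441 (median 118) against 48.7 to 93.6 (median 71.4). The neuronal list had 0 members past the threshold and medians of 2026 and 2034. The striatum list was 142 to 320 in MOR-LPS (median 230) against 291 to 789 in MOR-SAL (median 325), and 1 of its 5 genes, Rgs9, was lower there and for the difference in response. The hypothalamus list was 0.679 to 320 in MOR-LPS (median 42.9), 5.47 to 260.0 in MOR-SAL (109), 0 to 555 in SAL-LPS (75.9) and 2.30 to 334 in SAL-SAL (61.1), with 0 of its 8 genes past the threshold in edgeR for either comparison, 0 and 3 at an unadjusted p under 0.05 and list medians of the log2 change of -0.32 and -1.57. For the difference in response, 5 of 5 oligodendrocyte, 3 of 5 astrocyte and 3 of 8 thalamus markers were higher, the last with SAL-SAL libraries 10-1, 10-3 and 5-3 summing to 6083, 4237 and 2491 against a regional median of 349. The part of these cells in the results for Oprm1, Oprk1, Penk and Pomc was not tested. Without the 13 libraries of low hypothalamus markers Oprm1 (-0.53, adjusted p = 0.049), Oprk1 (-1.43, adjusted p = 0.018) and Penk (-1.68, adjusted p = 0.038) still passed in the same comparisons and Pomc did not (-4.42, adjusted p = 0.065). Without the 3 libraries of highest thalamus markers Oprm1 passed (-0.72, adjusted p = 0.013) and Oprk1, Penk (-1.32, adjusted p = 0.14) and Pomc (-3.71, adjusted p = 0.11) did not.

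In the other regions no member passed in any comparison of conditions by edgeR, DESeq2 or limma-voom. In the PFC the counts were 0 of 8 for exposure without challenge (0% of 21729 genes passed), exposure under challenge (0.0046%), the response of saline-exposed (0%) and of morphine-exposed animals (0.0184%) and the difference in response (1.78%), with 0, 1, 1, 1 and 0 members at an unadjusted p under 0.05, against 10.1% to 13.2% of genes. Those were Oprd1, at a mean of 16.1 in MOR-LPS (SD 6.33, n = 16) against 26.4 in SAL-LPS (SD 15.8, n = 10) and 26.3 in MOR-SAL (SD 10.4, n = 12), and Oprk1, at 47.4 in SAL-LPS against 23.9 in SAL-SAL (0.98 ± 0.46, adjusted p = 0.35). None of these passed after adjustment over all genes. The striatum list in the PFC had a median of 2633 in MOR-LPS, 3684 in SAL-LPS, 4145 in MOR-SAL and 3852 in SAL-SAL, and its part in the Oprd1 values was not tested.
In the striatum 0 of 8 passed for exposure without challenge (0% of 23426 genes), exposure under challenge (0%), the response of saline-exposed (0.0128%) and of morphine-exposed animals (1.39%) and the difference in response (0.00854%), with 2, 0, 1, 2 and 2 members at an unadjusted p under 0.05, against 11.2% to 17.8% of genes. Oprd1 had an unadjusted p under 0.05 in 3 of these, with means of 25.6 in MOR-SAL (SD 10.2, n = 8), 15.5 in SAL-SAL, 16.1 in SAL-LPS and 14.1 in MOR-LPS. Oprl1 mirrored it with 17.0 in MOR-SAL (SD 8.87, n = 8) against 27.7, 23.2 and 26.5, and Pnoc had 4.06 in SAL-LPS against 7.84 in SAL-SAL. Adjusted p for these 3 genes was at least 0.14. The striatum list, with which Oprd1 rose and Oprl1 fell across striatal libraries, had a median of 4698 in MOR-SAL, 3289 in SAL-SAL, 3332 in SAL-LPS and 3383 in MOR-LPS. Its part in these differences was not tested.

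In the hippocampus 0 of 8 passed for exposure without challenge (0% of 22076 genes), exposure under challenge (2.73%), the response of saline-exposed (2.55%) and of morphine-exposed animals (0.467%) and the difference in response (2.35%), with 0, 2, 2, 1 and 1 members at an unadjusted p under 0.05, against 10.3% to 17.5% of genes. Penk had the largest of these differences, MOR-LPS against SAL-LPS at -1.68 ± 0.62 (adjusted p = 0.11), on ranges of 8.00 to 259 (mean 59.4, n = 16) and 6.44 to 831 (mean 192, n = 14). The medians ran the other way, 27.3 in MOR-LPS and 17.6 in SAL-LPS, and 4 of the 5 hippocampal libraries above 400 were SAL-LPS. Without set 12 the difference was -2.26 (adjusted p = 0.045). Pdyn had means of 32.9 in SAL-LPS against 19.3 in both MOR-LPS and SAL-SAL, Pnoc 5.07 in SAL-LPS against 9.41 in SAL-SAL, and Oprl1 24.1 in MOR-LPS against 16.0 in MOR-SAL, each with an adjusted p of at least 0.18.

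**Figure D5:**
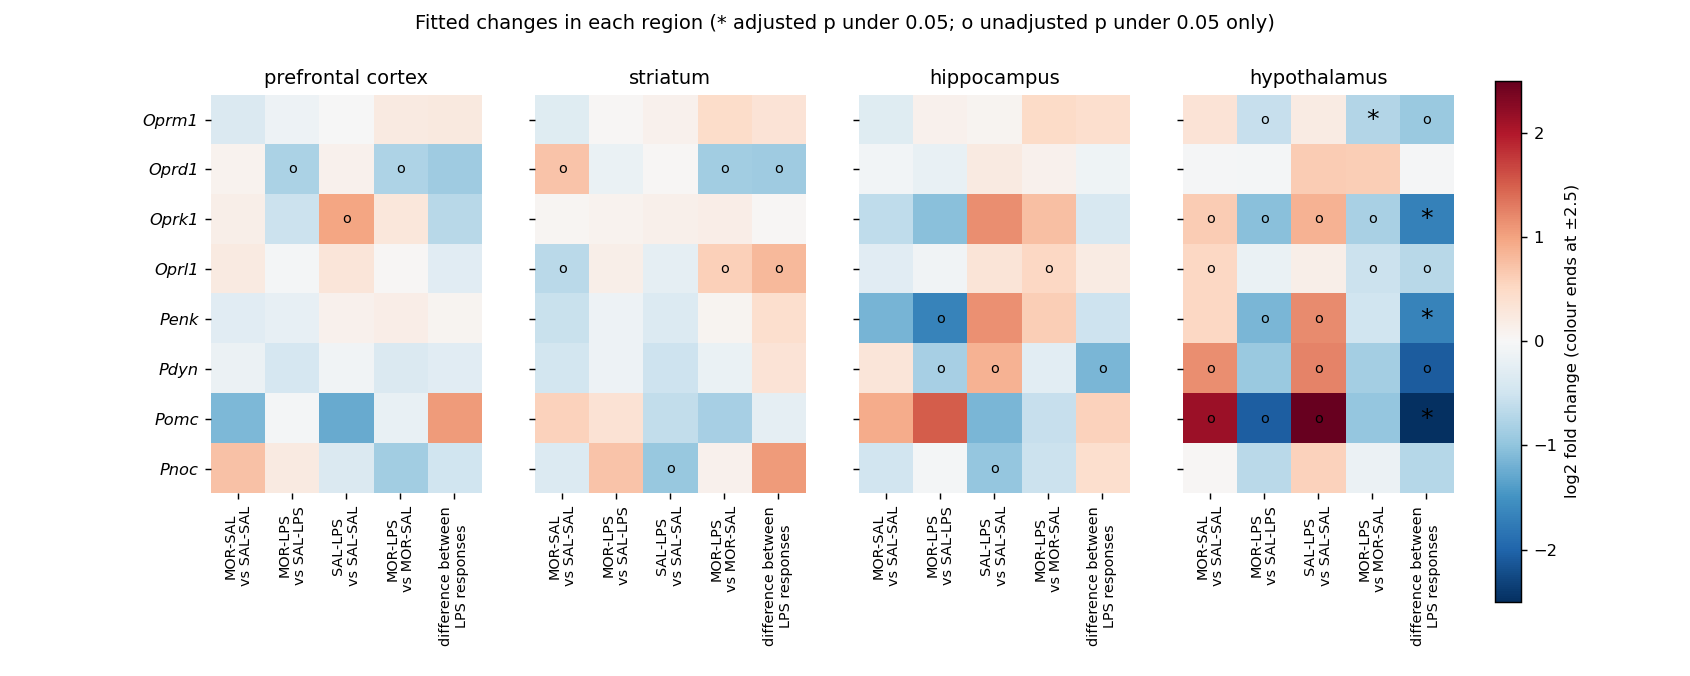
Fitted log2 fold changes of the 8 genes (rows) in the 5 comparisons (columns) for each region, on a colour scale that ends at ±2.5. Stars mark an adjusted p under 0.05 and circles an unadjusted p under 0.05 only. The 4 stars all lie in the hypothalamus, and the Pomc difference there (-4.19) is beyond the end of the scale.

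Sex was compared in the same fits. Of the 8 members 0 passed between females and males in the PFC (0.709% of genes), striatum (0.841%), hippocampus (2.51%) and hypothalamus (3.45%) by edgeR, and 0 by DESeq2 and limma-voom. With an unadjusted p under 0.05 were Oprl1 in the striatum (-0.41 ± 0.17, adjusted p = 0.24) and Pomc in the hypothalamus (-1.42 ± 0.71, adjusted p = 0.32), which was 0.050 without set 17 and -0.062 without library 17-1. With 17 of the 18 number sets of 1 sex, sex and number set overlap.

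The wider opioid pathway was followed through 36 listed genes for G proteins and their regulators, effector channels, and peptide processing and degradation, of which 33 had enough counts in the PFC, striatum and hippocampus and 34 in the hypothalamus. In the PFC, striatum and hippocampus 0 of them passed in any comparison of conditions by edgeR. Between 1 and 5 of 33 had an unadjusted p under 0.05 in each, where 10.1% to 17.8% of all genes did. DESeq2 called 1 in the striatum, where it called 6 to 717 of all genes per comparison of conditions. In the hypothalamus 3 of 34 passed for MOR-LPS against MOR-SAL, or 8.82%, near the 6.27% of all genes, with a list median of 0.029. They are named as single calls, and the list as a whole was not tested. Rgs9, a regulator that shortens G protein signals and is itself in the striatum list, was lower (-1.12 ± 0.29, adjusted p = 0.015), as was Ece2, an enzyme that can cleave neuropeptides (-0.59 ± 0.19, adjusted p = 0.041). Cpe, the carboxypeptidase that trims basic residues from freshly cut peptides, was higher (0.57 ± 0.18, adjusted p = 0.044).
For the difference in response 2 of 34 passed, or 5.88%, near the 3.8% of all genes, with a list median of 0.035. Rgs9 was lower (-1.93 ± 0.46, adjusted p = 0.00997) and Kcnj3, a subunit of the potassium channel that opioid receptors open, was higher (1.12 ± 0.29, adjusted p = 0.017). Rgs9 did not pass without set 15 or 16 in the first comparison or without set 10 in the second, nor Kcnj3 without set 10 (0.74, adjusted p = 0.20) or library 10-1, and Cpe held without 7 of 17 sets and 35 of 51 single libraries, and Ece2 without 11 and 37. Between the sexes Ece2 was higher in females in the hippocampus (0.47 ± 0.13, adjusted p = 0.039) and Gnaz, an inhibitory G protein subunit, was lower in females in the hypothalamus (-0.52 ± 0.14, adjusted p = 0.027), calls that held without 8 of 18 and 11 of 17 number sets. These were 1 of 33 pathway genes in the hippocampus and 1 of 34 in the hypothalamus, or 3.03% and 2.94%, near the 2.51% and 3.45% of all genes.

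Genes most like each member were sought by Spearman's rho across the libraries of the region where that member's median was highest, among genes with a mean of at least 5 normalized CPM there (10876 in the PFC, 13151 in the hypothalamus). For Penk in the PFC these were Pcp4l1 (rho 0.92) and Gpr83 (0.89), and for Pdyn in the PFC Tac1 (0.85), also in the D1 list, Strip2 (0.82) and Inpp5f (0.79). Among the receptors in the hypothalamus Oprl1 was most like Gaa (0.79), Wdr6 (0.77) and Prmt2 (0.76), Oprk1 most like Gpr165 (0.71), Dnah1 (0.70) and Magel2 (0.70), and Oprm1 most like Zfp92 (0.64), Zdbf2 (0.61) and Pmfbp1 (0.61). Pnoc there was most like Cisd1 (0.76), Nts (0.74), the neurotensin gene, and Resp18 (0.74), and Pomc most like Myh7 (0.73), Gm13052 (0.72) and Cdhr2 (0.71). Oprd1 in the PFC was most like Cacng2 (0.62) and Iglon5 (0.59). Pearson's r without the 2 libraries farthest from the median was between 0.25 (Oprk1 with Dnah1) and 0.90 (Penk with Pcp4l1) for the genes named. Each gene was picked as the highest of all genes searched, so these values describe the libraries and carry no test.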

How the data were processed

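Nuclear RNA of sorted NeuN-positive nuclei was sequenced by the authors as 1 Smart-seq3 library per animal and region. Per the methods of the study, reads were trimmed with Trim Galore 0.6.7, aligned to mm10 with STAR 2.7.10a and counted per gene (GENCODE vM25), and the deposited tables hold these raw counts. The deposited CPM tables, library-scaled counts without mitochondrial genes, were recomputed from the counts to within 1e-06 CPM and served as a check. The labels' processing notes also name HTSeq 0.12.4 and DESeq2 1.40.2.

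Groups, sexes and animal numbers came from the labels. The first part of the animal number, whose meaning is not given in the sources used here, was used as a block, as a correlation and for leaving out sets of animals. Genes with a total above 10 in a region were fitted by edgeR 4.0.16 (R 4.3.3) with TMM scaling and the quasi-likelihood test, with condition and sex as terms, and p-values were adjusted over all genes tested. The study used DESeq2, which was run here (1.42.0) as an alternative beside limma-voom (limma 3.58.1). The regions were compared in 1 joint fit of the SAL-SAL libraries. Same-numbered libraries of different regions share group and sex and were taken as the same animal, which is the pairing, and their consensus correlation was 0.0094. P-values measure the spread between animals, and littermates cannot be identified from the labels.

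The 8 genes, the marker lists and the pathway list were chosen with earlier results of these data known. Named are all 8 genes, up to 3 pathway genes per direction and comparison that passed, the 3 genes most like each member (2 for Penk and Oprd1, where 1 is not reported here), and markers that moved with a result. The statistics were tested on simulated data. Correlations used log2(normalized CPM + 1). All columns matched a sample.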

Additional observations from a re-analysis of the deposited data

Results flagged for a closer look

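Only PFC SAL-SAL, PFC SAL-LPS and striatum MOR-SAL, with at most 10 libraries each, were tested for a library far from the others. Of the 24 combinations of the 8 genes with these groups, 6 were flagged, all for a high value. The combinations share libraries and the values are skewed normalized CPM, so no chance rate is set against this count. In the PFC, Oprm1 was 133.4 normalized CPM in SAL-SAL 4-1 (next 77.2) and 155.2 in SAL-LPS 1-0 (next 65.1). Pomc was 12.3 in PFC SAL-SAL 5-1 (next 6.31). In the PFC SAL-LPS group, Oprl1 was 120.0 in library 1-4 (next 23.5) and Pnoc was 19.2 in library 10-0 (next 7.36). In the striatum, Pnoc was 24.5 in MOR-SAL 17-2 (next 6.62).

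In the hypothalamus the difference in response passed by edgeR's test for Oprk1 (-1.68 on the log2 scale), Penk (-1.67), Pomc (-4.19), Rgs9 (-1.93) and Kcnj3 (1.12). Each of these calls was lost when number set 10 was left out, so all of them depend on the animals of that set. Penk held in 4 and Pomc in 3 of 12 alternative fits and Oprk1 in 9, and limma-voom with a correlation within number sets called none of these 3 members.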

How the results depend on the processing

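Against 4 hypothalamic members called by condition, library size scaling and summing similar libraries each gave 2, and edgeR's filterByExpr, and limma-voom with a correlation within number sets (animals sharing the first part of their number), each gave 1. In the latter the test and the correlation, estimated at -0.049, changed together. Calls over all genes moved too. For the hypothalamic difference in response they were 1098 of 28859 genes in the main fit, 1106 with library size scaling and 667 with similar libraries summed. They were 112 of 18303 with filterByExpr and 36 of 28859 with limma-voom. With the number set as a block the LPS comparisons gave 2 member calls in place of 4, and fits of 2 groups alone gave 2 in place of 1. Leaving out 1 number set or library gave 2 to 7 member calls in the hypothalamus and 0 to 1 in the hippocampus, where 0 were called. Pathway genes called in the hypothalamus numbered 5, and 3 with filterByExpr, 2 with similar libraries summed, 1 with the number set as a block and 2 to 10 on leaving out a set or library. In the striatum 1 pathway gene passed with library size scaling and 1 with DESeq2, and in the hippocampus 1 without a sex term and 0 to 3 on leaving out a set, against 0. Between regions, all libraries with a condition term gave 32 calls in place of 20. The replicate block, a paired fit by animal in limma-voom, gave 21. The hypothalamic Pdyn difference between SAL-LPS and SAL-SAL was 1.24, and -0.27 with limma-voom and a correlation within number sets. The hypothalamic Pomc difference between the sexes was -1.42, and -1.87 to 0.050 on leaving out a set or library, the upper value without set 17. Causes were not tested. Fits that leave out hypothalamic libraries one at a time, low or high marker libraries, or sum similar libraries were chosen after seeing the data. Depth limits Pomc and every value of hypothalamic SAL-LPS 1-4.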
